A study of Homo sapiens with 39 samples.

Results

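The mRNAs of the nuclear and the mitochondrially encoded subunits of the respiratory chain were followed in C4-2B cells treated with PARP inhibitors (PARPi), androgen receptor pathway inhibitors (ARPi) or both. Members were protein-coding genes whose symbols begin with the names of the subunits of complexes I to V (NDUFA, NDUFB, NDUFC, NDUFS and NDUFV, SDHA to SDHD, UQCR, COX4 to COX8, ATP5, and the 13 mitochondrial MT- genes). The rule reads gene names and gene type only, and complexes were assigned by symbol, so that NDUFA4, now known as a subunit of complex IV, and its paralog NDUFA4L2 are counted under complex I. They were 102 of the 63187 genes in the count table, 89 encoded in the nucleus (39 of complex I, 4 of complex II, 9 of complex III, 17 of complex IV and 20 of complex V) and 13 in mitochondrial DNA (7 of complex I, 1 of complex III, 3 of complex IV and 2 of complex V). Of the 89 nuclear members 83 passed the filter on low counts, and all 13 mitochondrial ones did. The other 6 held 0 to 4 counts in every library. They were COX4I2, COX6A2, COX6B2, COX7A1 and COX8C, which encode tissue-restricted forms of complex IV subunits, and ATP5MGL.

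C4-2B is a castration-resistant prostate cancer cell line derived from LNCaP, and all groups were this line, treated the day after plating. In the 5-day panel, cells received DMSO (the vehicle), abiraterone at 5 µM, enzalutamide at 20 µM, olaparib at 1 µM, talazoparib at 10 nM, abiraterone with olaparib, or enzalutamide with talazoparib. In a separate time course, cells received DMSO, olaparib at 1 µM or olaparib at 5 µM for 1 or 5 days. Each of the 13 groups had 3 libraries, 21 in the panel and 18 in the time course. Abiraterone blocks androgen synthesis through CYP17A1 and enzalutamide blocks the androgen receptor, and olaparib and talazoparib inhibit PARP enzymes. One cell line in culture stands for the tumour cell alone, and the sources do not say whether the 3 libraries of a group came from separate cultures, so p-values measure the spread between these samples only. Because RNA was measured in bulk, a lower level of an mRNA can come from fewer cells that make it or from less of it in each cell, and these cannot be told apart.

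The respiratory chain oxidises NADH (complex I) and succinate (complex II), passes electrons through ubiquinone, complex III and cytochrome c to oxygen at complex IV, and pumps protons that drive ATP synthesis by complex V. Complexes I, III, IV and V are built from subunits of both genomes, whereas complex II is wholly nuclear. The mitochondrial genes are transcribed as long polycistronic RNAs from both strands of the circular genome and are cut into single mRNAs, so their levels reflect copies of the genome, its transcription and the decay of each mRNA, while nuclear genes are in general transcribed one by one.

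Library totals lay between 26932205 and 49833473 counts. The treatments could be seen in their control genes. TMPRSS2, an androgen receptor target, changed by -2.45 on the log2 scale with abiraterone and by -2.80 with enzalutamide. CDKN1A, a p53 target, changed by 2.18 with olaparib and by 1.98 with talazoparib in the panel, and by 4.15 with olaparib at 5 µM for 5 days. All 8 prostate luminal markers were present in every library, and their summed level was 2385 to 5125 CPM (counts relative to library size, scaled by edgeR's TMM method, as all CPM here). The 3 leukocyte markers PTPRC, CD3E and LYZ summed to 0.175 to 1.76 CPM, with CD3E at 0 or 1 counts. Of the fibroblast markers DCN and COL1A2 had at most 2 counts, and of the endothelial markers PECAM1 had at most 4, CDH5 at most 10 and VWF 266 to 789. Of the markers of other cell types COL1A1 and PTPRC rose and LYZ fell with either ARPi, COL1A1 by 0.68 and 0.60 on the log2 scale. VWF changed by 0.45 with abiraterone and -0.35 with enzalutamide, both past the threshold. Under the PARPi of the panel COL1A1 rose by 0.41 (olaparib) and 0.25 (talazoparib), and LYZ rose by 1.28 with olaparib and by 1.73 and 1.84 with 1 and 5 µM of it at day 5 of the time course. VWF fell by 0.20 with talazoparib, and at day 5 with 5 µM VWF fell by 0.38 and PDGFRB by 0.72. At day 1 both COL1A1 (0.25 and 0.39) and VWF (0.26 and 0.40) rose with 1 and 5 µM, COL1A1 rose by 0.19 at day 5 with 1 µM, and VWF rose by 0.46 with abiraterone + olaparib. With abiraterone + olaparib and enzalutamide + talazoparib COL1A1 rose by 0.86 and 0.83 and PTPRC by 4.58 and 4.96, the latter on at most 47 counts. The 4 fibroblast markers summed to 11.9 to 16.0 CPM with DMSO, 19.6 to 21.2 with abiraterone, 19.4 to 20.4 with enzalutamide, 16.7 to 18.1 with olaparib, 15.2 to 16.5 with talazoparib, and 22.5 to 23.5 and 22.8 to 23.5 with the combinations, and at day 1 of the time course to 13.6 to 14.4 with DMSO, 16.5 to 16.8 with 1 µM and 16.9 to 19.2 with 5 µM, nearly all of it COL1A1 and PDGFRB, and the part of these genes in the results below was not tested.

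In DMSO the mitochondrial genes were far more abundant than the nuclear ones. Per kilobase of the annotated transcript, the 13 mitochondrial genes lay between 161 CPM for MT-ND6 and 10928 CPM for MT-CO1 in the panel's DMSO libraries, with a median of 5033. The 82 nuclear members above 1 CPM lay between 2.03 for NDUFA4L2 and 845 for ATP5F1B, the catalytic β subunit of ATP synthase, with a median of 96.5. Within the mitochondrial genome the 3 complex IV genes stood highest, at 10928 for MT-CO1, 10193 for MT-CO3 and 9186 for MT-CO2. The lowest of the genes on the heavy strand transcript was MT-ND5 (chrM:12337-14148, plus strand, GRCh38), at 1969 CPM per kilobase. MT-ND6 (chrM:14149-14673, minus strand) is the single mRNA encoded on the other strand. By complex, the median of the nuclear members per kilobase was 179 for complex IV, 152 for complex V, 83.7 for complex II, 65.9 for complex III and 63.8 for complex I.

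The mitochondrial genes took a larger share of the library in every treated group. In the panel they made up 6.83, 6.95 and 6.55% of all counts in the 3 DMSO libraries, 7.73, 8.21 and 8.02% with abiraterone and 9.14, 8.24 and 8.54% with enzalutamide. With olaparib the shares were 8.56, 8.70 and 8.55%, and with talazoparib 8.35, 8.98 and 9.14%. The combinations stood highest, at 9.74, 9.42 and 9.39% for abiraterone + olaparib and 9.82, 9.95 and 9.67% for enzalutamide + talazoparib. No treated library of the panel reached down to the DMSO range, and no combination library reached down to the range of its single drugs. In the time course the share was 6.13 to 6.31% with DMSO at day 1, 6.60 to 6.86% with olaparib at 1 µM and 7.36 to 7.51% at 5 µM. At day 5 it was 5.57 to 5.74% with DMSO, 7.30 to 7.39% at 1 µM and 9.33 to 9.56% at 5 µM. The 3 ranges of a day did not overlap, in the order of the dose.

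The nuclear members together took 1.05 to 1.09% of the counts in the panel's DMSO libraries. Their share was lower in all 12 libraries that received an ARPi, at 0.951 to 0.986% with abiraterone, 0.969 to 1.00% with enzalutamide, 0.961 to 0.971% with abiraterone + olaparib and 0.970 to 0.996% with enzalutamide + talazoparib. It was 1.05 to 1.07% with olaparib and 1.09 to 1.12% with talazoparib. With an ARPi the summed mRNA of the nuclear subunits therefore stood below the DMSO range while that of the mitochondrial subunits stood above it. Counts of the mitochondrial rRNAs are reduced in libraries that capture poly(A) RNA, and these took 3.12 to 3.22% with DMSO, 3.18 to 3.27% with abiraterone, 3.09 ± 0.0460% (mean ± SD, n = 3) with enzalutamide and 3.72 to 3.81% with olaparib. Thus the rRNA share overlapped the DMSO range with either ARPi alone and was above it with olaparib. It was also above that range with talazoparib (3.73 to 3.90%), abiraterone + olaparib (3.82 to 4.02%) and enzalutamide + talazoparib (3.77 to 3.82%).

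**Figure D1:**
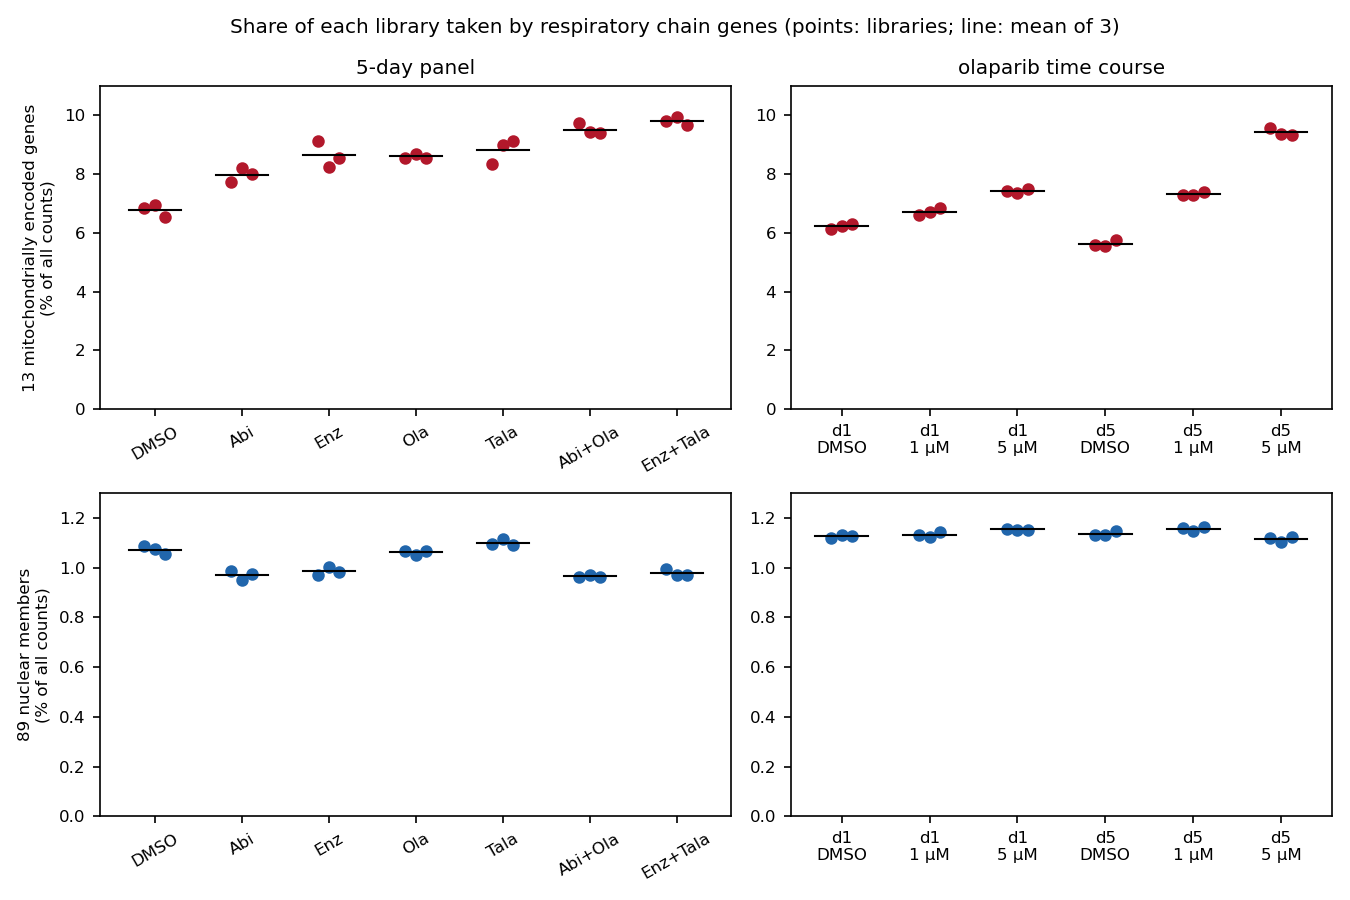
Share of all counts of a library (%, y axes from 0) taken by the 13 mitochondrially encoded genes (top) and the 89 nuclear members (bottom), for each group of the 5-day panel (left) and the olaparib time course (right). Points are libraries and lines are means of 3. The mitochondrial share is 6.55 to 6.95% with DMSO and 9.67 to 9.95% with enzalutamide + talazoparib, whereas the nuclear share is lower in the groups with abiraterone (Abi) or enzalutamide (Enz).

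Among the single mitochondrial genes, 8 of 13 rose with abiraterone and 10 with enzalutamide, olaparib raised 13 and talazoparib 12, and none fell (edgeR's quasi-likelihood test, adjusted p under 0.05 by Benjamini-Hochberg over 18625 genes). With the library total as the scale 12 rose with abiraterone. Of all genes tested, 25.8% rose with abiraterone and 27% with enzalutamide, and the PARPi raised 19.6% (olaparib) and 18.4% (talazoparib). In each combination 12 of 13 rose, against 31.1% and 31.2% of all genes. The median log2 fold change of the 13 genes was 0.16 with abiraterone and 0.32 with enzalutamide. Under olaparib it was 0.38, and under talazoparib 0.43. It was 0.47 and 0.50 with the combinations. The 13 genes share 1 genome and its transcripts, so they are not independent of each other, and the 6 treatments share the 3 DMSO libraries.

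MT-ND5, a proton-pumping subunit of complex I, stood at 3649, 3696 and 3359 CPM in the DMSO libraries of the panel. With abiraterone it was 4597, 4903 and 4695 CPM, and with enzalutamide 5624, 4965 and 5301 CPM. With olaparib it was 5534, 5623 and 5517 CPM, and with talazoparib 4594, 5093 and 5141 CPM. All treated libraries lay above all DMSO libraries, and the abiraterone and talazoparib libraries overlapped each other. The combinations reached 6338, 6164 and 5946 CPM with abiraterone + olaparib and 6411, 6503 and 6206 CPM with enzalutamide + talazoparib. The log2 fold changes in MT-ND5 were 0.41 ± 0.051 (SE) with abiraterone, 0.57 ± 0.051 with enzalutamide, 0.64 ± 0.051 with olaparib, 0.47 ± 0.051 with talazoparib, and 0.79 ± 0.051 and 0.84 ± 0.051 with the combinations, with adjusted p from 2.90e-06 for talazoparib and 5.12e-06 for abiraterone to 6.44e-10 for enzalutamide + talazoparib (edgeR's quasi-likelihood test, Benjamini-Hochberg).

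The mitochondrial genes did not rise by equal amounts. With abiraterone MT-ND5, MT-ND3 (0.40) and MT-CYB (0.33), the cytochrome b of complex III, rose most. MT-CO1, the catalytic subunit of complex IV, was 17041, 17432 and 16080 CPM with DMSO and 17631, 18874 and 18326 CPM with abiraterone, a difference of 0.12 ± 0.059 on the log2 scale that missed the threshold (edgeR adjusted p = 0.114). MT-CO1 rose by 0.32 with enzalutamide, 0.38 with olaparib and 0.50 with talazoparib. MT-ND6 was 76.7, 88.96 and 88.3 CPM with DMSO, 75.8, 75.3 and 90.3 CPM with abiraterone and 72.3, 78.7 and 70.2 CPM with enzalutamide, and 115, 103 and 108 CPM with olaparib. The olaparib libraries lay above DMSO in MT-ND6, by 0.36 ± 0.10 (edgeR adjusted p = 0.00938). In the other treatments of the panel its change missed the threshold, also with enzalutamide + talazoparib (0.12 ± 0.10), whose libraries at 90.0, 95.5 and 91.3 CPM all lay above DMSO.

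Enzalutamide and abiraterone differed directly in 4 mitochondrial genes, all higher with enzalutamide, against 9.78% of all genes. They were MT-ND4L (0.21), MT-CO1 (0.20), MT-ND4 (0.20) and MT-ND5 (0.16). No mitochondrial gene was past the threshold between talazoparib and olaparib, whose doses differ. With the library total as the scale, or with RLE scaling, 1 was lower with talazoparib. With the PARPi added, 12 of 13 mitochondrial genes were higher with abiraterone + olaparib than with abiraterone (14.4% of all genes), and 13 of 13 were higher with enzalutamide + talazoparib than with enzalutamide (16.5% of all genes). The median differences were 0.30 and 0.23 on the log2 scale. The combined effect was below the sum of the single effects for MT-ND5 under abiraterone and olaparib (-0.26 ± 0.072, against 8.08% of all genes lower), and for MT-CO1 (-0.32 ± 0.084), MT-CO2 (-0.29 ± 0.056) and MT-ND4 (-0.29 ± 0.078) under enzalutamide and talazoparib (7.28% of all genes). These interactions, the combination minus both single effects on the log2 scale, had edgeR adjusted p of 0.0262, 0.0209, 0.00294 and 0.0259.

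In the olaparib time course the mitochondrial genes rose with dose and more at day 5 than at day 1. At day 1, 3 of 13 rose at 1 µM (6.3% of all genes) and 11 of 13 at 5 µM (21.6%), with median log2 fold changes of 0.080 and 0.21. At day 5, 12 of 13 rose at either dose (23.4% of all genes at 1 µM and 34.4% at 5 µM), with medians of 0.41 and 0.81. The count of 3 at day 1 and 1 µM was 6 with the library total as the scale, 4 with TMM scaling that left out the mitochondrial genes and 2 with RLE scaling. None fell at any dose or day. At 5 µM against 1 µM, 10 of 13 were higher at day 1 (12.8% of all genes) and 12 of 13 at day 5 (26.6%).

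MT-ND5 had the largest change at day 5, at either dose. At day 1 it was 3996, 3814 and 3894 CPM with DMSO, 4028, 4252 and 4237 CPM at 1 µM and 4757, 4539 and 4782 CPM at 5 µM. At day 5 it was 2980, 3067 and 3035 CPM with DMSO, 4654, 4687 and 4760 CPM at 1 µM and 7348, 7403 and 7334 CPM at 5 µM. The 3 groups of a day did not overlap, and the day 5 libraries at 5 µM were the highest of the time course. The log2 fold change was 0.10 ± 0.024 and 0.27 ± 0.024 at day 1 and 0.63 ± 0.024 and 1.28 ± 0.024 at day 5. MT-ND3 and MT-CYB followed, at 1.10 ± 0.033 and 1.07 ± 0.034 for 5 µM at day 5, then MT-ND4 (0.99), MT-CO2 (0.87), MT-ND1 (0.85), MT-ND4L (0.81), MT-ND2 (0.78), MT-ATP6 (0.76), MT-CO3 (0.69), MT-ATP8 (0.59) and MT-CO1 (0.55). MT-ND6 missed the threshold at both days and both doses, with 394, 328 and 226 CPM in the libraries at 5 µM and day 1, a spread wider than that of its neighbours.

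Part of the contrast between days lay in the DMSO libraries. Between day 1 and day 5 of DMSO, 10 of 13 mitochondrial genes fell (13.4% of all genes), with a median of -0.21, while among the nuclear members 4 rose and 4 fell (11.1% and 13.4% of all genes). That nuclear split was 15 and 3 with the library total as the scale, 8 and 4 with TMM scaling that left out the mitochondrial genes and 4 and 7 with RLE scaling. MT-ND6 (-0.53 ± 0.16), MT-ND1 (-0.40), MT-ND2 (-0.40) and MT-ND5 (-0.37 ± 0.024) fell most. The mitochondrial rRNAs moved with the mRNAs at day 5 and 5 µM, where MT-RNR2 rose by 1.04 and MT-RNR1 by 0.77. In the panel MT-RNR2 rose by 0.32 with olaparib and its change of -0.042 with abiraterone missed the threshold, and MT-RNR1 fell by 0.50 with enzalutamide. With talazoparib MT-RNR2 rose by 0.35, whereas the changes of MT-RNR1, 0.070 with olaparib and 0.020 with talazoparib, missed the threshold. A nuclear copy of MT-ATP6 annotated as a pseudogene, MTATP6P1, held 11.8% to 16.3% as many counts as MT-ATP6, and how reads were divided between them makes the level of MT-ATP6 uncertain.

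**Figure D2:**
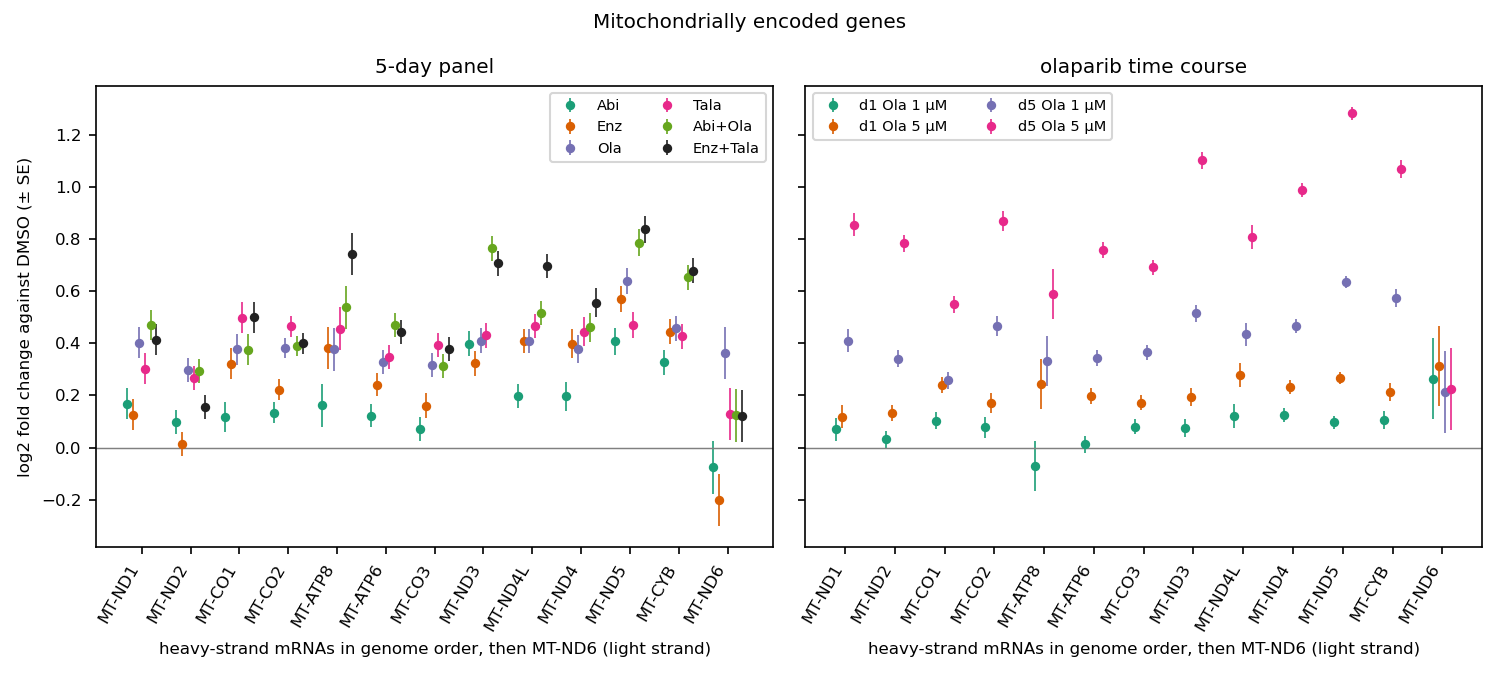
Log2 fold change against DMSO of the same experiment and day (y axis, ± SE of the fit) for the 13 mitochondrially encoded genes, with the genes of the heavy strand transcript in genome order and MT-ND6 last (x axis). Left, the 6 treatments of the panel. Right, olaparib at 1 or 5 µM for 1 (d1) or 5 days (d5), where MT-ND5 reaches 1.28 and MT-ND6 keeps wide errors.

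In contrast, most nuclear members fell with either ARPi, and members of all 5 complexes were among them. With abiraterone 64 of 83 nuclear members fell and 1 rose, where 27.1% of all genes fell and 25.8% rose. With enzalutamide 53 fell and 3 rose, where 26.3% of all genes fell and 27% rose. The median log2 fold change of the nuclear members was -0.20 with abiraterone and -0.15 with enzalutamide, and that of all genes tested was 0.00030 and 0.017. For 64 members with abiraterone and 56 with enzalutamide all 3 treated libraries lay below all 3 DMSO libraries, as they did for 29.2% and 28.4% of all genes tested. Each single change was small, from -0.61 for ATP5MC1 to 0.34 for NDUFB4 with abiraterone. When counts were scaled by the library total alone, without TMM, 52 fell and 4 rose with abiraterone and 44 fell and 9 rose with enzalutamide.

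In complex I, which has most members, 29 of 39 fell with abiraterone and 23 with enzalutamide. NDUFB10, an accessory subunit of its membrane arm, was 163, 165 and 163 CPM with DMSO, 115, 112 and 112 CPM with abiraterone and 118, 125 and 122 CPM with enzalutamide. Its log2 fold changes were -0.53 ± 0.032 and -0.43 ± 0.032, and the DMSO libraries lay above all others. NDUFB7, another accessory subunit, fell by 0.46 and 0.38. NDUFS7, which carries an iron-sulfur cluster, was 24.3, 24.7 and 25.6 CPM with DMSO, 22.2, 21.4 and 20.5 CPM with abiraterone and 18.8, 20.0 and 21.2 CPM with enzalutamide, changes of -0.22 ± 0.058 and -0.31 ± 0.058.

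In complex III 7 of 9 members fell with abiraterone and 6 of 9 with enzalutamide. UQCR10 was 84.6, 90.1 and 89.3 CPM with DMSO, 65.5, 66.2 and 69.1 CPM with abiraterone and 70.2, 71.7 and 70.5 CPM with enzalutamide, with no overlap with DMSO (log2 fold changes -0.40 ± 0.036 and -0.31 ± 0.036). UQCRFS1, the Rieske iron-sulfur protein, was 124, 123 and 117 CPM with DMSO, 101, 93.0 and 97.4 CPM with abiraterone and 94.5, 99.5 and 93.8 CPM with enzalutamide. In complex IV 9 of 12 fell with abiraterone, and with enzalutamide 6 fell and COX7C rose (0.10). The log2 fold changes were -0.24 and -0.21 for COX6B1 and -0.13 and -0.10 for COX4I1, and the median over complex IV was -0.18 and -0.10. The share that fell was highest in complex V, 16 of 19 with abiraterone and 15 of 19 with enzalutamide. ATP5F1C, the γ subunit of the rotor, was 219, 217 and 212 CPM with DMSO, 167, 161 and 168 CPM with abiraterone and 167, 168 and 166 CPM with enzalutamide, with log2 fold changes of -0.39 ± 0.028 and -0.37 ± 0.028.

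**Figure D3:**
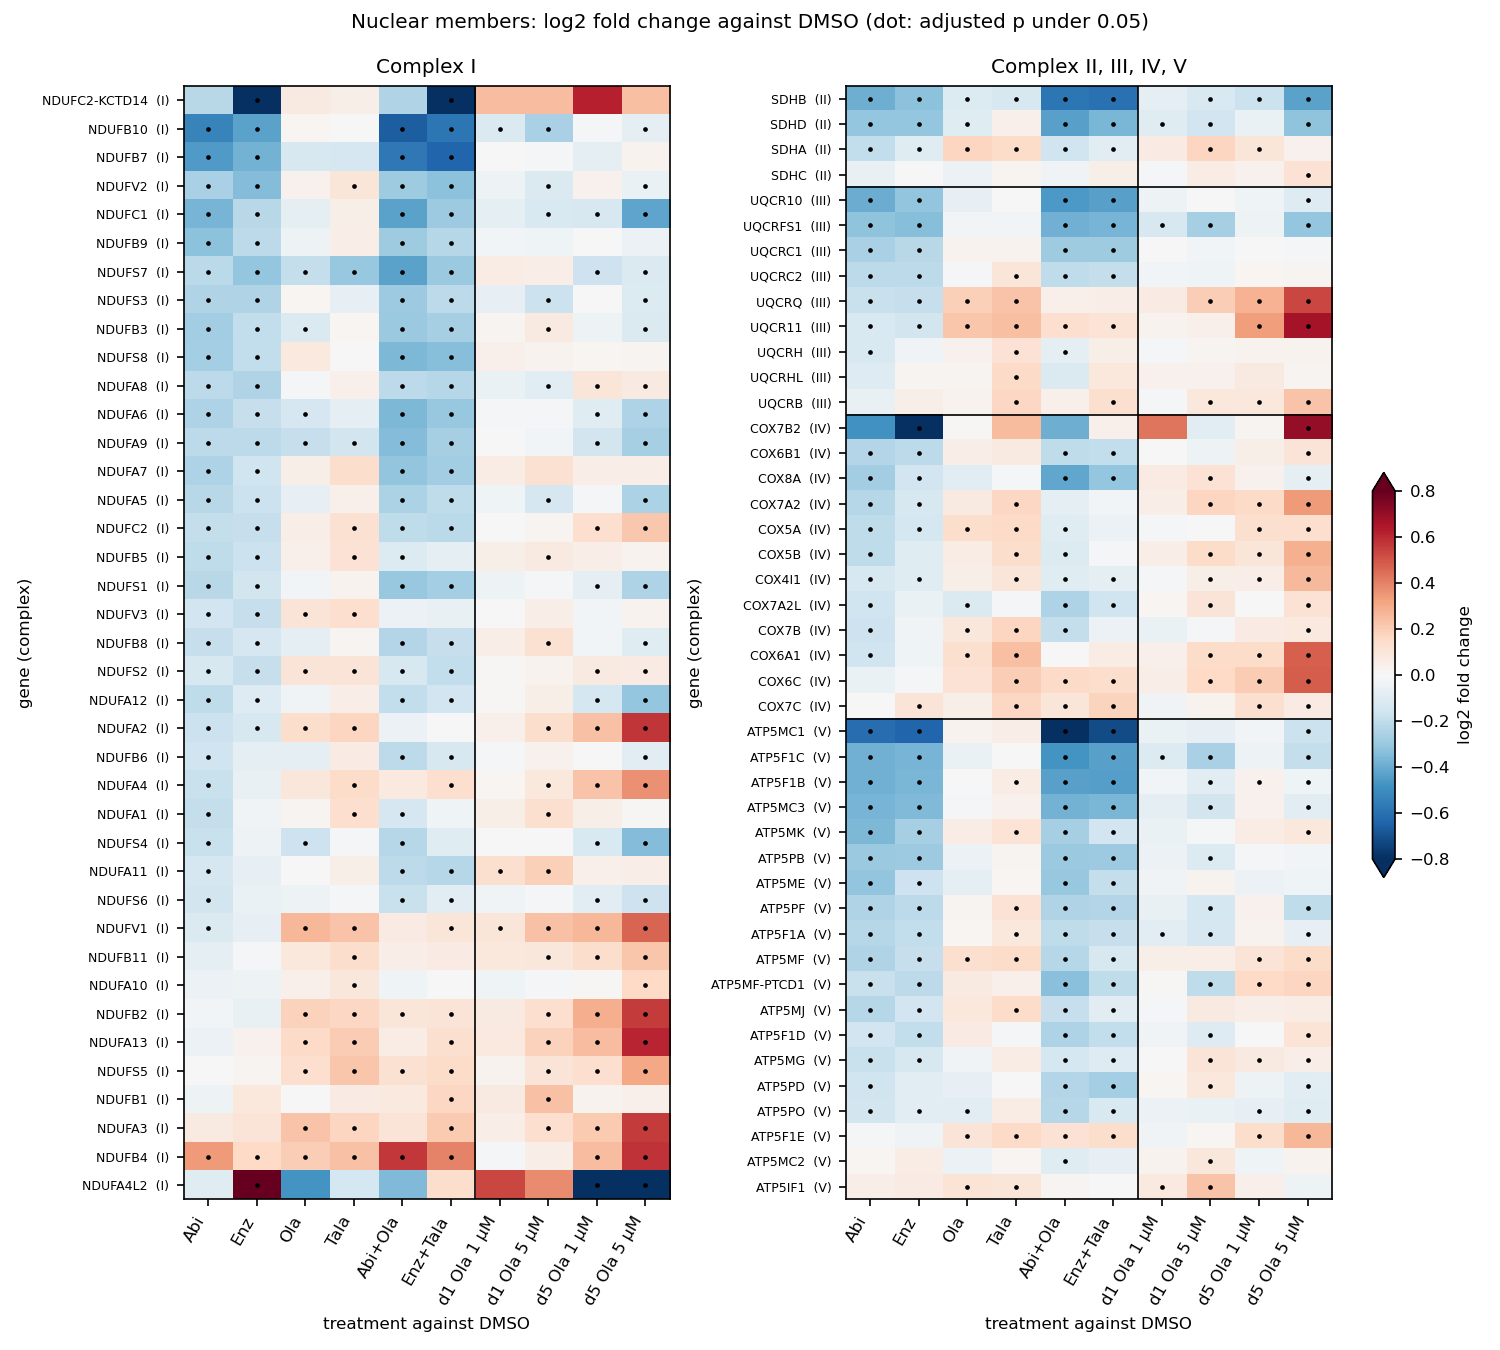
Log2 fold change against DMSO (colour, blue lower and red higher, cut at ±0.8) of the 83 nuclear members tested, as rows by complex, in the 6 panel treatments and the 4 olaparib groups of the time course (columns). Dots mark edgeR adjusted p under 0.05. The columns with abiraterone (Abi) or enzalutamide (Enz) are mostly blue, NDUFB4 is red in the panel, and at day 5 and 5 µM red and blue members stand in the same complexes.

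The genes of ATP synthase subunit c did not move together. ATP5MC1, ATP5MC2 and ATP5MC3 encode proteins with the same mature sequence, the proton-carrying c-ring, and different mitochondrial targeting peptides. ATP5MC1 was 102, 98.8 and 106 CPM with DMSO, 66.9, 66.6 and 67.2 CPM with abiraterone and 66.7, 67.1 and 63.9 CPM with enzalutamide. It had the largest fall of the nuclear members past the threshold with abiraterone, -0.61 ± 0.037 (edgeR adjusted p = 3.22e-16), and fell by a like amount with enzalutamide, -0.63 ± 0.037 (8.54e-17). ATP5MC2 was 94.4, 97.5 and 94.6 CPM with DMSO, 99.1, 94.5 and 95.8 CPM with abiraterone and 105, 97.8 and 96.9 CPM with enzalutamide, and its changes of 0.014 ± 0.034 and 0.061 ± 0.033 missed the threshold. With either ARPi the libraries overlapped the DMSO range for ATP5MC2 and lay below it for ATP5MC1. ATP5MC3 was 157, 171 and 165 CPM with DMSO, 130.2, 125 and 126 CPM with abiraterone and 122, 134 and 128 CPM with enzalutamide, and fell by 0.37 and 0.36 on the log2 scale.

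The log2 ratio of ATP5MC1 to ATP5MC2 within a library was 0.0969 ± 0.0715 (SD, n = 3) with DMSO, -0.527 ± 0.0346 with abiraterone and -0.598 ± 0.0528 with enzalutamide. It was lower than in any DMSO library in all 12 libraries with an ARPi. The differences from DMSO were -0.62 with abiraterone, -0.69 with enzalutamide, -0.71 with abiraterone + olaparib and -0.65 with enzalutamide + talazoparib, each with p = 0.1 by an exact two-sided permutation test, the smallest that 3 against 3 libraries can give. With olaparib the difference was 0.078 (p = 0.2) and with talazoparib 0.036 (p = 0.6), both by the same exact test. The ratio of ATP5MC3 to ATP5MC2 was lower by 0.38 with abiraterone and by 0.42 with enzalutamide. Because the 3 genes are similar in their coding part, how reads were divided between them could affect these ratios. In olaparib alone at 5 µM and day 5, ATP5MC1 changed by -0.17 ± 0.029 and ATP5MC2 by 0.029 ± 0.030.

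ATP5MC1 (chr17:48892765-48895871, plus strand, GRCh38) and ATP5MC2 (chr12:53632726-53677408, minus strand) are driven from promoters of their own. The 250 bases before each start site are shown because the 2 genes encode the same mature protein and differed in response. They are RefSeq sequence on GRCh38.p14, whose start sites lie inside the gene spans given, at chr17:48892537-48892786 on the plus strand and chr12:53676331-53676580 on the minus strand, and capitals mark CCAAT boxes (CCAAT) and the cyclic AMP response element TGACGTCA, searched on both strands.
ATP5MC1: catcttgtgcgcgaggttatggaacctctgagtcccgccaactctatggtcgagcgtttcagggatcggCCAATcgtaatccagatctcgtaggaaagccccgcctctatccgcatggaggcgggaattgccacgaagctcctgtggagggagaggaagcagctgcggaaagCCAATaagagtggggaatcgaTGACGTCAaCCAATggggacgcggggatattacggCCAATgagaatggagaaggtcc
ATP5MC2: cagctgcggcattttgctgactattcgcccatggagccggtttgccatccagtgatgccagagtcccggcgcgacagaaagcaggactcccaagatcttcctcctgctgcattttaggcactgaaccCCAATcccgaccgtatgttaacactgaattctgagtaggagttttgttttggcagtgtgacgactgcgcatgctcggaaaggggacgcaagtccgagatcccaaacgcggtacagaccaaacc
The ATP5MC1 window held TGACGTCA and 4 CCAAT boxes, and the ATP5MC2 window held 1 CCAAT box. TGACGTCA stood in 3.05% and CCAAT in 37.1% of the 300-base windows (250 before and 50 after the start) of 12283 genes tested in the panel. These matches describe letters in a window and no binding was measured.

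**Figure D4:**
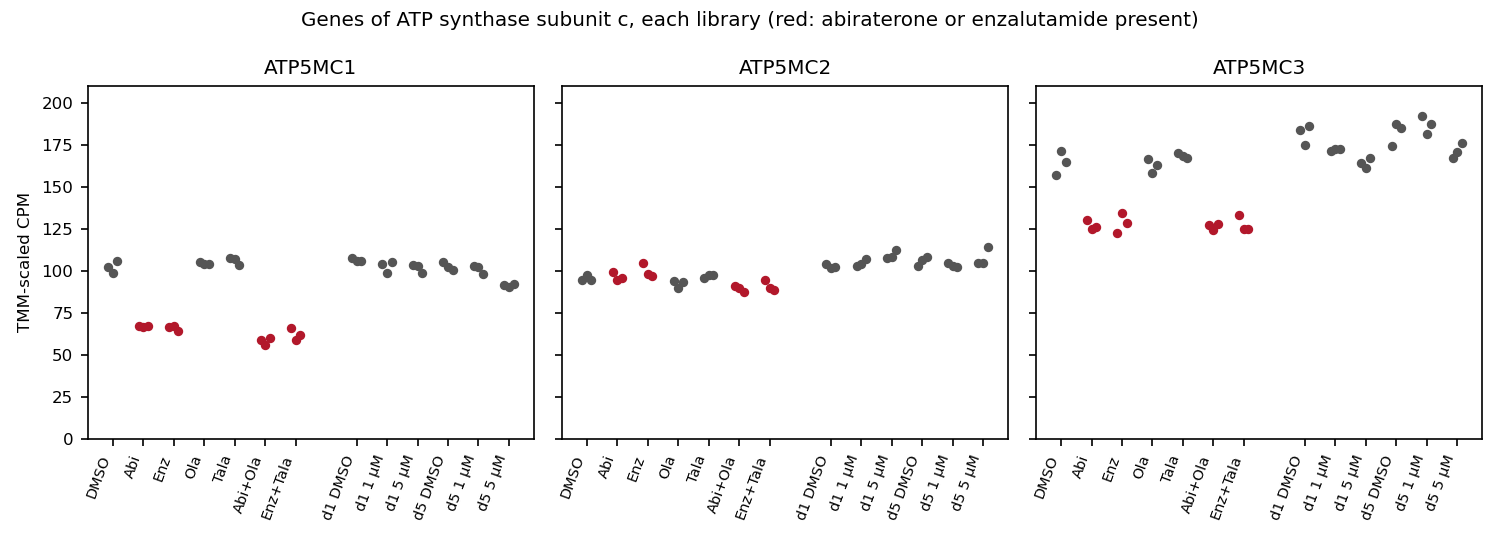
TMM-scaled CPM (y axes from 0) of the genes of ATP synthase subunit c in all 39 libraries, by group (x axis). Points are libraries, red where abiraterone or enzalutamide was present. ATP5MC1 lies at 98.8 to 106 CPM with DMSO and 56.0 to 59.8 CPM with abiraterone + olaparib, and ATP5MC2 at 94.4 to 97.5 and 87.2 to 90.6 CPM.

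NDUFB4 went against most nuclear members. NDUFB4 (chr3:120596328-120602507, plus strand), an accessory subunit at the distal part of the membrane arm of complex I, was 213, 215 and 204 CPM with DMSO, 267, 262 and 271 CPM with abiraterone and 240.1, 235 and 232 CPM with enzalutamide. It was the 1 nuclear member that rose with abiraterone (0.34 ± 0.033), and 1 of 3 with enzalutamide (0.16 ± 0.033). With olaparib it was 241, 239.9 and 246 CPM (0.20) and with talazoparib 235, 262 and 248 CPM (0.24). With abiraterone + olaparib it reached 315, 319 and 300.4 CPM and with enzalutamide + talazoparib 290.4, 276 and 265 CPM, 0.56 ± 0.033 and 0.40 ± 0.033 on the log2 scale. In no treated group of the panel did a library fall within the DMSO range. NDUFB4 was higher with abiraterone than with enzalutamide by 0.18 on the log2 scale (edgeR adjusted p = 1.46e-04).

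Between the ARPi, 15 nuclear members were higher and 3 lower with enzalutamide than with abiraterone (9.78% and 10.1% of all genes), a median of 0.054. The 3 lower ones were NDUFB4 and, named after their values were seen, NDUFV2 and the readthrough transcript NDUFC2-KCTD14. With the library total as the scale, 10 were higher and 4 lower. Of either genome 22 members differed, and 14 did without abiraterone replicate 1 or enzalutamide replicate 3 and 11 without abiraterone replicate 2. NDUFA4L2, a low-level paralog of NDUFA4 known as a hypoxia-inducible gene, was 2.44, 1.63 and 1.67 CPM with DMSO, 1.83, 1.71 and 1.79 CPM with abiraterone and 3.67, 3.75 and 2.61 CPM with enzalutamide. It rose with enzalutamide (0.81 ± 0.20), and the difference between the ARPi was 0.91 ± 0.20. Its expressed paralog NDUFA4 fell with abiraterone (-0.18), and its change with enzalutamide was -0.059, which missed the threshold. COX7B2, a testis form of COX7B, was 0.916, 0.873 and 0.937 CPM with DMSO and 0.633, 0.519 and 0.431 CPM with enzalutamide (-0.80 ± 0.25), on 18 to 37 counts per library. NDUFC2-KCTD14 overlaps NDUFC2 and reads of both cannot be divided with certainty, and it fell with enzalutamide by 1.59 ± 0.32 on 19 to 130 counts per library.

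Fewer nuclear members passed the threshold with the PARPi. With olaparib 18 rose and 9 fell (19.6% and 16% of all genes), shares near the background, with a median of 0.022 on the log2 scale. With the library total as the scale 13 rose and 18 fell. With talazoparib 39 rose and 3 fell (18.4% and 15.4% of all genes), with a median of 0.067, or 20 and 6 with the library total as the scale. Leaving out 1 library in turn gave 39 to 55 members of either genome with talazoparib, against 54 with all. The rises with talazoparib were 16 of 39 in complex I, 1 of 4 in complex II, 6 of 9 in complex III, 8 of 12 in complex IV and 8 of 19 in complex V. The members that fell with talazoparib were NDUFS7 (-0.30 ± 0.058), NDUFA9 (-0.14 ± 0.036) and SDHB (-0.13 ± 0.040).

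NDUFV1, the flavoprotein that takes electrons from NADH, was 141, 130.3 and 129.6 CPM with DMSO, 163, 159 and 158 CPM with olaparib and 158, 159 and 153 CPM with talazoparib. It rose by 0.26 ± 0.035 with olaparib and 0.23 ± 0.035 with talazoparib, with no overlap with DMSO, while its change with abiraterone was -0.11 ± 0.036. UQCR11, a small subunit of complex III, was 58.9, 57.9 and 54.3 CPM with DMSO, 67.8, 64.8 and 66.6 CPM with olaparib, 67.8, 67.5 and 66.9 CPM with talazoparib, 53.6, 50.6 and 53.1 CPM with abiraterone and 52.0, 51.4 and 50.9 CPM with enzalutamide. It was above the DMSO libraries with either PARPi and below them with either ARPi, at 0.22, 0.24, -0.12 and -0.15 in that order. NDUFA9, which sits at the junction of the arms of complex I, was 88.7, 86.7 and 84.4 CPM with DMSO and 75.5, 76.9 and 76.2 CPM with olaparib (-0.18 ± 0.036), and it also fell with the ARPi (-0.21 and -0.21). Talazoparib at 10 nM and olaparib at 1 µM differed in 8 nuclear members, all higher with talazoparib (3.11% of all genes), and none was lower (5.25%). DESeq2 called 19 members there, and leaving out 1 library in turn gave from 1 (without talazoparib replicate 3) to 14 (without talazoparib replicate 1), with 4 without talazoparib replicate 2 or olaparib replicate 2 and 5 without olaparib replicate 1. The largest differences were 0.15 ± 0.031 for ATP5PO, 0.14 ± 0.031 for UQCRB and 0.14 ± 0.031 for SDHD.

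Under the combinations too most nuclear members fell. With abiraterone + olaparib 57 fell and 7 rose (31.1% and 31.1% of all genes), and with enzalutamide + talazoparib 50 fell and 13 rose (31.3% and 31.2%). With the library total as the scale 51 fell and 13 rose, and 45 fell and 17 rose. The medians were -0.21 and -0.15. The falls with abiraterone + olaparib were 25 of 39 in complex I, 3 of 4 in complex II, 5 of 9 in complex III, 7 of 12 in complex IV and 17 of 19 in complex V. Of the members with over 100 counts, ATP5MC1 fell furthest with both, to 59.0, 56.0 and 59.8 CPM with abiraterone + olaparib and 65.8, 58.5 and 61.9 CPM with enzalutamide + talazoparib, that is -0.81 ± 0.038 and -0.72 ± 0.037 against DMSO. Large falls with both were also seen in NDUFB10 (-0.66 and -0.58), in NDUFB7 (-0.57 and -0.63) and in SDHB, whose values are given below. Among the few that rose were NDUFB4, UQCR11 (0.13 and 0.11) and COX6C (0.15 and 0.14), a small subunit of complex IV.

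Adding the PARPi to the ARPi changed single members in both directions. Against abiraterone alone 18 nuclear members were higher and 12 lower with abiraterone + olaparib (14.4% and 14.7% of all genes), and 11 and 16 with the library total as the scale. Against enzalutamide alone 18 were higher and 14 lower with enzalutamide + talazoparib (16.5% and 17.9%), and 13 and 20 with the library total. In both comparisons the share that was lower was near that of all genes. With the library total more members were lower than higher in both. Departures from the sum of the single drugs differed between the combinations. For abiraterone and olaparib 6 nuclear members had a combined effect below the sum and none above (8.08% and 4.74% of all genes), no more than the background. The largest was ATP5MC1, -0.23 ± 0.053 (edgeR adjusted p = 0.00263), whose change with olaparib alone missed the threshold (0.029 ± 0.036) and which was lower with the combination than with abiraterone (-0.20 ± 0.039). For enzalutamide and talazoparib 12 lay below the sum and 1, NDUFS7 (0.31 ± 0.082), above it (7.28% and 5.32% of all genes). The share below the sum was larger than that of all genes, but with the library total as the scale only 4 lay below. These counts depend on single libraries, since they ranged from 1 to 5 members of either genome for abiraterone and olaparib and from 2 to 16 for enzalutamide and talazoparib when each library was left out in turn, against 7 and 16 with all libraries. Only DMSO replicate 1 and abiraterone replicates 2 and 3 could be left out and leave a count of 5. For enzalutamide and talazoparib the count was 7 without DMSO replicate 3, 10 without enzalutamide replicate 1, 2 and 4 without talazoparib replicates 2 and 3, and 3 and 2 without replicates 2 and 3 of the combination.

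Complex II was followed gene by gene, since its 4 subunits are all nuclear and also catalyse a step of the tricarboxylic acid cycle. SDHB (chr1:17018664-17054032, minus strand), the iron-sulfur subunit, was 70.5, 74.9 and 69.1 CPM with DMSO, 53.4, 55.03 and 55.6 CPM with abiraterone, 48.6, 48.2 and 46.9 CPM with abiraterone + olaparib and 49.4, 46.4 and 45.5 CPM with enzalutamide + talazoparib. It fell in all 6 treatments, by 0.39 ± 0.041 with abiraterone, 0.33 ± 0.040 with enzalutamide, 0.11 ± 0.040 with olaparib, 0.13 ± 0.040 with talazoparib, and 0.58 ± 0.042 and 0.60 ± 0.041 with the combinations. SDHA, the flavoprotein that oxidises succinate, was 166, 161 and 161 CPM with DMSO, 146, 138 and 141 CPM with abiraterone and 188, 179 and 183 CPM with olaparib. SDHA thus lay below DMSO with abiraterone (-0.20 ± 0.028) and above it with olaparib (0.17 ± 0.028) and talazoparib (0.14 ± 0.028). SDHC, a membrane anchor, was 127, 129 and 124 CPM with DMSO and 123, 119 and 124 CPM with abiraterone and missed the threshold in all 6 treatments. SDHD, the other anchor, was 140.4, 141 and 137 CPM with DMSO, 114, 107 and 116 CPM with abiraterone and 133, 129 and 129 CPM with olaparib (-0.31 and -0.095). In the time course SDHB was 74.6, 74.2 and 73.4 CPM with DMSO and 52.2, 56.0 and 57.0 CPM with olaparib at 5 µM on day 5 (-0.43 ± 0.030), and SDHD changed by -0.32 ± 0.031, SDHC by 0.12 ± 0.029 and SDHA by 0.032 ± 0.026, of which the last missed the threshold.

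In the time course the nuclear members split at the high dose. At day 1 olaparib at 1 µM raised 3 of 83 (NDUFA11, NDUFV1 and ATP5IF1) and lowered 5 (UQCRFS1, NDUFB10, ATP5F1C, SDHD and, named after its value was seen, ATP5F1A), against 6.3% and 9.52% of all genes. With the library total as the scale 11 rose and 4 fell, DESeq2 called 17 members of either genome against 11, and without replicate 3 of the olaparib group 7 were called. At 5 µM 28 rose and 17 fell (21.6% and 23.4% of all genes), and 42 and 14 with the library total. At day 5 28 rose and 11 fell at 1 µM (23.4% and 22.9%). At 5 µM 34 rose and 29 fell (34.4% and 33.9%), and 23 and 38 with the library total. The nuclear median was 0.029 at day 5 and 5 µM, with a range from -1.23 to 0.70, and it was below 0 with the library total as the scale. The shares at 5 µM and day 5 were near the background in both directions.

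Within complex IV 11 of 12 nuclear members rose at day 5 and 5 µM and COX8A fell, with a median of 0.20, though COX7B and COX7C were below 0 when counts were scaled by the library total alone. In complex I 13 rose and 16 fell, in complex III 3 and 2, and in complex V 6 and 8, and in complex II 1 rose and 2 fell. UQCR11 was 59.1, 61.7 and 62.8 CPM with DMSO, 78.4, 77.0 and 75.6 CPM at 1 µM and 99.04, 95.4 and 96.2 CPM at 5 µM on day 5, with no overlap between the groups. It rose by 0.33 ± 0.031 and 0.66 ± 0.031 on the log2 scale, whereas at day 1 its changes were 0.027 ± 0.032 and 0.038 ± 0.032 and missed the threshold. NDUFA13, a subunit of complex I also known as GRIM-19, was 55.6, 57.3 and 58.3 CPM with DMSO and 83.8, 88.2 and 89.04 CPM at 5 µM (0.61 ± 0.030). NDUFB4 was 222, 221 and 232 CPM with DMSO and 342, 330.4 and 333 CPM at 5 µM (0.58 ± 0.023), while on day 1 it was 228, 225 and 228 CPM and 235, 230.2 and 241 CPM, groups whose difference of 0.053 ± 0.024 missed the threshold. Among the members that rose COX6C was 111, 106 and 108 CPM with DMSO and 156, 151 and 149 CPM at 5 µM (0.49 ± 0.028).

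Other members of the same complexes fell at 5 µM and day 5. NDUFC1 was 47.3, 50.4 and 49.7 CPM with DMSO, 47.2, 42.5 and 45.1 CPM at 1 µM and 36.9, 35.5 and 37.5 CPM at 5 µM, and the libraries at 5 µM lay below all others of that day (-0.42 ± 0.038). NDUFS4, an assembly-critical subunit of the electron-transfer arm of complex I, fell by 0.35 ± 0.039. UQCRFS1 was 131, 136 and 137 CPM with DMSO, 129.6, 131 and 133 CPM at 1 µM and 107, 107 and 112 CPM at 5 µM (-0.31 ± 0.026). At day 1 UQCRFS1 had already fallen, from 137, 137 and 137 CPM with DMSO to 113, 114 and 114 CPM at 5 µM (-0.27 ± 0.026). NDUFA4L2 was 1.39, 1.68 and 1.31 CPM with DMSO on day 5, 0.858, 0.515 and 0.865 CPM at 1 µM and 0.476, 0.813 and 0.562 CPM at 5 µM, falls of 0.96 ± 0.22 and 1.23 ± 0.23 on few counts.

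The effect of olaparib differed between the days for many members, by the test of the difference itself. At 1 µM 24 nuclear members had a higher log2 fold change at day 5 than at day 1 and 4 a lower one (15.6% and 14.2% of all genes), 13 and 11 with the library total as the scale. At 5 µM these were 33 and 24 (27.2% and 27.7%), 14 and 44 with the library total. For the mitochondrial genes 12 of 13 were higher at day 5 at each dose. At 5 µM UQCR11 differed by 0.63 ± 0.045 and MT-ND5 by 1.02 ± 0.034 (edgeR adjusted p = 1.04e-14 and 1.14e-12). Between the days 7 nuclear members passed the threshold in opposite directions at 5 µM, of 83, a share near the 7.52% of all genes that did. COX8A, the subunit VIII of complex IV, rose by 0.12 ± 0.033 at day 1 and fell by 0.080 ± 0.033 at day 5, a difference of -0.20 ± 0.047. ATP5MF-PTCD1, a readthrough transcript that overlaps ATP5MF, fell by 0.21 ± 0.053 at day 1 and rose by 0.17 ± 0.052 at day 5, a difference of 0.38 ± 0.074. Between the doses 21 nuclear members were higher and 11 lower at 5 µM than at 1 µM on day 1 (12.8% and 15.9% of all genes). On day 5 these were 24 and 26 (26.6% and 27%). With the library total they were 29 and 7 on day 1 and 18 and 40 on day 5. Both shares on day 5, and the share that was lower on day 1, were near the background.

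Olaparib at 1 µM for 5 days was run in both experiments, which share no library, so the comparisons have no control in common. Of the 18 nuclear members that rose in the panel 15 (83.3%) rose in the time course, and these were 53.6% of the 28 that rose there, where for all genes the shares were 79.5% and 67.6%. Of the 9 that fell in the panel 6 (66.7%) fell in the time course, 54.5% of the 11 there, against 84.8% and 59.6% for all genes, and no member was called in opposite directions. The sign of the fold change was the same for 71 of 83 nuclear members and for 78.2% of all genes. Across these members Pearson's r of the log2 fold changes was 0.83, and over all genes it was 0.49, a description over genes that are not independent. All 12 mitochondrial genes that rose in the time course were among the 13 of the panel. UQCR11 changed by 0.22 ± 0.038 in the panel and 0.33 ± 0.031 in the time course, NDUFV1 by 0.26 ± 0.035 and 0.27 ± 0.023, NDUFS7 by -0.19 ± 0.058 and -0.16 ± 0.046, and MT-ND5 by 0.64 ± 0.051 and 0.63 ± 0.024.

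**Figure D5:**
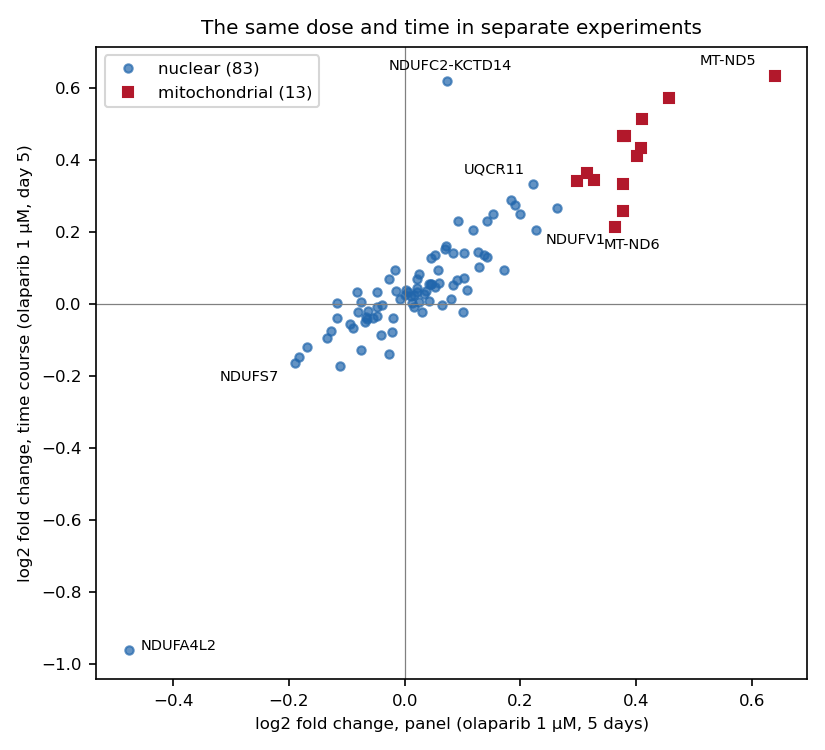
Log2 fold change of each member with olaparib at 1 µM for 5 days against DMSO, in the panel (x axis) and in the time course (y axis). Circles are the 83 nuclear and squares the 13 mitochondrial genes tested. The squares all lie above 0 on both axes, and the low-level NDUFA4L2 and NDUFC2-KCTD14 lie apart from the other circles.

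The promoters of the nuclear members were read for motifs known from genes of mitochondrial function. RefSeq windows (250 bases before and 50 after the start, GRCh38.p14) matched 70 of the 89 nuclear members and 19093 genes in all. The letters AA, any base and ATGGCGGC in a row, of the kind bound by YY1 and searched on both strands, stood in 9 of 70 members (12.9%) and in 3.05% of the 12121 genes tested in the time course. Of 26 members with a window that were lower at day 5 with olaparib at 5 µM 7 held it (26.9%), and of 24 that were higher 0 held it, where among all genes it stood in 4.20% of the lower and 2.42% of the higher ones. The counts of lower and higher members in that comparison rest on the TMM scale, since the library total gave 23 higher and 38 lower in place of 34 and 29. Of 54 members with a window that were lower with abiraterone 9 held it (16.7%), where it stood in 4.68% of all genes lower with abiraterone. Of the other 16 members 0 held it. Split by falls with both abiraterone and enzalutamide, 7 of 42 members held it (16.7%) and 2 of the other 28 did (7.14%). The other members in both splits include COX6A2, COX6B2 and COX8C, which were not tested. The NRF1 motif (GCGC, AT and GCGC in a row) stood in 5.71% of members and 2.27% of the 12121 genes. CCGGAAGT, an ETS motif, stood in 14.3% and 8.34%, and CACGTG in 10.0% and 9.98%. The 9 windows of 30 bases around the YY1-type letters are shown because 7 of these members were lower and none was higher at day 5 with 5 µM. Capitals mark the match, and the strand is the one printed. NDUFS1, NDUFS6, NDUFS8 and UQCRC1 are shown for the motif and were named after their values were seen.
NDUFA9, chr12:4649115-4649144, plus strand: ttgtgggaaAAGATGGCGGCtgccgcacaa
NDUFS1, chr2:206159412-206159441, plus strand: cgcttattcAATATGGCGGCctcggctaac
NDUFS3, chr11:47579080-47579109, plus strand: catctgagtAACATGGCGGCggcggcggta
NDUFS4, chr5:53560651-53560680, plus strand: gcctgcagcAAGATGGCGGCggtgtcaatg
NDUFS6, chr5:1801406-1801435, plus strand: cagcggcgcAAAATGGCGGCggcgatgacc
NDUFS8, chr11:68030492-68030521, plus strand: ccccaaaccAACATGGCGGCcccctacaaa
SDHB, chr1:17054002-17054031, minus strand: tcaggagccAAGATGGCGGCggtggtcgcc
UQCR10, chr22:29767387-29767416, plus strand: ctgtgaagaAACATGGCGGCcgcgacgttg
UQCRC1, chr3:48609603-48609632, minus strand: tgcagctggAAGATGGCGGCgtccgtggtc
The letters ATGGCGGC also read as a start codon and an alanine codon, so the match can lie in coding sequence. NDUFS4, SDHB, NDUFA9 and NDUFS1 of these fell by 0.35, 0.43, 0.26 and 0.25 on the log2 scale at 5 µM and day 5, whereas NDUFS8 (0.020) and UQCRC1 (-0.012) missed the threshold. No binding was measured, and a match is no site.

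Among the genes that serve the chain, most fell with either ARPi. Of 78 mitochondrial ribosomal proteins, which translate the 13 mitochondrial mRNAs, 63 fell and 1 rose with abiraterone, 65 fell and 1 rose with enzalutamide, 20 fell and 10 rose with olaparib, and 57 fell and 10 rose with olaparib at 5 µM for 5 days. Of all genes 27.1%, 26.3%, 16% and 33.9% fell in these 4 comparisons, and 25.8%, 27%, 19.6% and 34.4% rose. MRPS18A fell by 0.85 with abiraterone and 0.87 with enzalutamide on the log2 scale. Among 11 mitochondrial translation factors 8 fell with abiraterone and 9 with enzalutamide, led by the elongation factor GFM1 (-1.02 and -1.25), which rose with olaparib (0.27). Of 19 tricarboxylic acid cycle genes 16 fell and 2 rose with abiraterone, and DLAT of the pyruvate dehydrogenase complex fell by 0.69. The chain genes outside the naming rule, CYCS (cytochrome c), CYC1 (cytochrome c1) and NDUFAB1, all fell with both ARPi, CYCS by 0.48 and 0.58.

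Of the assembly factors 12 of 18 for complex I, 3 of 6 for complex III, 15 of 24 for complex IV and 3 of 5 for complex V fell with abiraterone, where 27.1% of all genes fell. For complex II it was 1 of 4, a share near that background. NDUFAF2 of complex I fell by 0.63 and NDUFAF6 rose by 0.55. Of 13 genes of coenzyme Q synthesis 8 fell and 1 rose. Of 15 genes that maintain and transcribe mitochondrial DNA 7 fell and 2 rose with abiraterone, and 5 fell and 4 rose with olaparib at 5 µM for 5 days, where the nuclease MGME1 fell by 1.34. In the latter group 33.9% of all genes fell and 34.4% rose, so these counts were not above the background. Of 10 regulators of mitochondrial biogenesis 7 fell with abiraterone and none rose, led by PPARGC1A (-1.02), and with olaparib at 5 µM for 5 days 8 fell and 2 rose, with falls in PPARGC1A (-0.84), NRF1 (-0.69) and TFAM (-0.63), the factor that packages mitochondrial DNA. Of 18 genes of mitochondrial RNA processing and decay 10 fell and 1 rose with abiraterone. The one that rose was REXO2, an oligoribonuclease (0.72), which also rose with olaparib at 5 µM for 5 days (0.64), where PNPT1, a subunit of the mitochondrial RNA degradosome, fell (-0.63).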

How the data were processed

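RNA of 39 libraries of C4-2B cells was sequenced as poly(A)-captured, strand-marking mRNA libraries. The deposited values are estimated counts per gene, which the authors made with Trim Galore, STAR and Salmon on GRCh38 with GENCODE annotation. They are whole numbers as deposited, and neither how they were rounded nor the strand setting of the counting is given in the sources used here. Estimated counts divide reads between similar genes, so near-identical copies (UQCRH and UQCRHL, the 3 genes of subunit c) and readthrough transcripts are uncertain. Annotated pseudogenes of the nuclear members held 0.0874% to 0.116% as many counts as the members.

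Groups and replicate numbers came from the labels. Each experiment was fitted by itself, without covariates, by the robust, two-sided quasi-likelihood test of edgeR 4.0.16 (R 4.3.3), after TMM scaling and the filterByExpr filter by group, and p-values were adjusted by Benjamini-Hochberg over the 18625 genes tested in the panel and the 18502 in the time course, with a threshold of 0.05. No gene list had a test of its own. SE of a log2 fold change is its size divided by the square root of F. An interaction is the combination minus the sum of the single drugs, or the effect at day 5 minus that at day 1. CPM use TMM-scaled library sizes. Library totals of 26932205 to 49833473 counts set the precision, which is least for members with few counts. Members and gene lists were chosen with earlier results of these data known.

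Named genes were the 13 mitochondrial ones, the genes of complex II and of subunit isoform families, and, for each comparison with DMSO, the 4 largest rises and 4 largest falls past the threshold among nuclear members whose mean count reached 100 where it was higher (3 each in direct comparisons and interactions, and 3 per comparison in the other gene lists). Genes outside it are said to be named after their values were seen. Promoter windows were RefSeq sequence (GRCh38.p14) around annotated starts. Gene positions came from a GENCODE release earlier than the authors', on the same build, and 521 gene IDs had no symbol in it. Alternatives were other scalings (RLE, library total alone, TMM without mitochondrial genes), other filters on low counts, DESeq2 1.42.0, a fit of the compared groups only, a replicate block and leaving out each library. No 2 replicates agreed within sampling noise (chi-square per degree of freedom 2.18 to 6.03 over 39 pairs). Same-numbered libraries did not deviate together (63 pairs of same-numbered libraries in the panel with r from -0.0686 to 0.0636, and 45 in the time course from -0.133 to 0.116, of which 2 were over 0.1), so the numbers were not taken as pairs.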

Additional observations from a re-analysis of the deposited data

Results flagged for a closer look

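The effect of olaparib on 12 mitochondrial genes and on 3 nuclear members at each dose, the largest by the naming rule, differed between day 5 and day 1 by the test of the difference itself (edgeR's quasi-likelihood test, Benjamini-Hochberg). The values are the log2 fold change at day 5 minus that at day 1. At 1 µM the mitochondrial genes with such a difference were MT-ND5 (0.54), MT-CYB (0.47), MT-ND3 (0.44), MT-ATP8 (0.40), MT-CO2 (0.39), MT-ND1 (0.34), MT-ND4 (0.34), MT-ATP6 (0.33), MT-ND4L (0.31), MT-ND2 (0.31), MT-CO3 (0.28) and MT-CO1 (0.16). At 5 µM they were MT-ND5 (1.015), MT-ND3 (0.91), MT-CYB (0.85), MT-ND4 (0.75), MT-ND1 (0.74), MT-CO2 (0.70), MT-ND2 (0.65), MT-ATP6 (0.56), MT-ND4L (0.53), MT-CO3 (0.52), MT-ATP8 (0.34) and MT-CO1 (0.31). The nuclear members were UQCR11 (0.31), NDUFB4 (0.26) and NDUFS7 (-0.23) at 1 µM, and UQCR11 (0.63), NDUFB4 (0.52) and NDUFA2 (0.43) at 5 µM. Of these only NDUFS7 at 1 µM had a log2 fold change that was lower at day 5, and MT-ND6 missed the threshold at both doses. The DMSO libraries of the 2 days enter these differences, and between them 10 of 13 mitochondrial genes fell.

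MT-ND5 shows the size of these differences. It was 3996, 3814 and 3894 CPM with DMSO and 4757, 4539 and 4782 CPM at 5 µM on day 1, and 2980, 3067 and 3035 and 7348, 7403 and 7334 CPM on day 5. UQCR11 was 60.5, 62.5 and 59.5 CPM with DMSO and 62.7, 60.7 and 64.1 CPM at 5 µM on day 1, groups that overlapped, whereas on day 5 they did not. With 3 libraries in each group single libraries were not tested as outlying.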

How the results depend on the processing

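Counts here are members past the threshold in either direction, of 96 tested. Scaling by the library total alone gave 3 in place of 7 for the abiraterone by olaparib interaction, 8 in place of 16 for the enzalutamide by talazoparib interaction, 21 in place of 11 at day 1 with 1 µM, and 28 in place of 18 between the DMSO days. A filter of 1 CPM in 3 libraries gave 4 for the abiraterone by olaparib interaction. DESeq2 gave 19 in place of 8 for talazoparib against olaparib and 17 at day 1 with 1 µM, where a fit of the compared groups only gave 18. Of the named genes' calls COX7C (-0.017) and COX7B (-0.00161) at day 5 with 5 µM and ATP5F1C in the interaction of 5 µM with day (-0.0597) reversed with the library total. That scaling also moved the split of higher and lower nuclear members to 13 and 18 with olaparib, 23 and 38 at day 5 with 5 µM, 14 and 44 for the interaction of 5 µM with day, and 15 and 3 between the DMSO days. For the interaction of enzalutamide and talazoparib it gave 1 and 4. The causes were not tested. No call of a mitochondrial gene changed direction under any scaling tried.

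Leaving out 1 library in turn gave 1 to 5 for the abiraterone by olaparib interaction, 2 to 16 for enzalutamide by talazoparib, 11 to 18 in place of 22 for enzalutamide against abiraterone (11 without abiraterone replicate 2, 14 without abiraterone replicate 1 or enzalutamide replicate 3), 1 to 14 for talazoparib against olaparib (4 without olaparib replicate 2 or talazoparib replicate 2, 5 without olaparib replicate 1) and 7 to 11 at day 1 with 1 µM. For the other comparisons it stayed within 1.5 times the count.

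No comparison's count moved by over 1.5 times with a replicate block, and the numbers are shared labels only. With the block the counts were 73 with abiraterone, 66 with enzalutamide, 40 with olaparib, 54 with talazoparib, 75 with abiraterone + olaparib, 74 with enzalutamide + talazoparib in the panel against DMSO, 23 between the ARPi, 8 between the PARPi, 40 and 44 for a combination against its ARPi, 5 and 16 for the drug interactions, 11 and 55 at day 1 with 1 and 5 µM, 52 and 74 at day 5, 41 and 62 between the doses, 19 between the DMSO days, and 40 and 70 for the day interactions. Each library correlated best with its own number in 34 of 126 library and group pairs of the panel (27%) and 21 of 90 of the time course (23.3%). Of 678 named calls 671 kept their side of the threshold.

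With 3 libraries per group the design limits small effects, and members under about 100 counts (NDUFA4L2, COX7B2, NDUFC2-KCTD14) were the least precise.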

Other observations

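With talazoparib 9 of 24 complex IV assembly factors rose and none fell, and with olaparib 7 rose and 1 fell, where 18.4% and 19.6% of all genes rose. Of the 78 mitochondrial ribosomal proteins 11 fell and 9 rose with talazoparib and 20 fell and 10 rose with olaparib, where 15.4% and 16% of all genes fell and 18.4% and 19.6% rose, so that with talazoparib neither count was above the background. GFM1 rose with talazoparib (0.28 on the log2 scale). With olaparib at 5 µM for 5 days 12 of 18 complex I assembly factors fell and 4 rose, and 12 of 18 genes of mitochondrial RNA processing fell and 4 rose, where 33.9% of all genes fell. In coenzyme Q synthesis PDSS1 fell by 1.00 and COQ10B rose by 0.82 in that group. At day 1 with 5 µM 15 of 18 genes of mitochondrial RNA processing and 9 of 10 biogenesis regulators fell, where 23.4% of all genes fell. These counts share the DMSO libraries of their experiment and day.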
